A study of Mus musculus with 21 samples.

Results

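The 4 phospholipase genes described here were *Pla2g2a*, *Pla2g5*, *Pla2g10* and *Plcd3*, read at every differentially methylated region (DMR) that overlapped the gene or the 1000 bp upstream of it. The genes were selected on the MeDIP-seq values of adenoma against normal intestine, since a rank test by the authors on these samples had listed DMRs there, so that contrast is given as a description and was not tested again. By this rule 5 merged DMRs of 13980 were found, made of 10 windows of 17690, each window being 500 bp long. Of the 5 DMRs, 4 were among the 8845 hypomethylated and 1 among the 5135 hypermethylated DMRs of adenoma. The samples were ileum of male C57BL/6J (B6) mice aged 15 to 19 weeks. MeDIP-seq, in which an antibody against 5-methylcytidine pulls down methylated DNA fragments for sequencing, was done on 3 groups. The B6 group (B1 to B3) was intestine of 3 wild type Apc-+/+ mice. Mice heterozygous for the Min allele (Apc-Min/+, APCMin) gave 3 samples of normal tissue (N4, N5, N6). From 4 such mice came 5 adenomas, named Ad4, Ad4-1, Ad5, Ad6, Ad7. Normal and adenoma tissue came from the same mouse for animals 4, 5 and 6, and Ad4 and Ad4-1 were separate adenomas of 1 mouse. All groups had the B6 strain in common, and the APCMin normal and adenoma samples had the Min allele in common. The samples were pieces of whole tissue, the labels name no cell type, and no expression values were used to check the tissue by its markers.

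Secreted phospholipases A2 release fatty acids, among them arachidonic acid, from membrane phospholipids outside the cell, and arachidonic acid is the source of prostaglandins and leukotrienes. *Pla2g2a* is the candidate gene of *Mom1*, a locus that modifies adenoma number in APCMin mice, and the C57BL/6 strain carries a disrupted copy of it. The gene annotation used here lists it as a processed transcript without a coding sequence. *Pla2g5* encodes a second secreted phospholipase A2 beside it, *Pla2g10* encodes one of high activity on phosphatidylcholine that is known from the gut, and *Plcd3* encodes a phospholipase C of the delta class, which splits phosphatidylinositol bisphosphate into inositol trisphosphate and diacylglycerol. Methylation in mammals falls mostly on CpG sites, so the number of such sites in a stretch sets how much signal an antibody against methylated cytosine can give.

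The stretches below carry the 3 main DMRs and were read from the mm9 genome, 5′ to 3′ on the strand of the gene, with each CpG site in capitals. The first is part of the intron of *Pla2g2a* at chr4:138388060-138388359 on the plus strand, with 11 CpG sites. The second is the 300 bp that end at the annotated start of *Pla2g10*, chr16:13731077-13731376 on the minus strand, with 8 CpG sites. The last pair are consecutive coding exons of *Plcd3* on the minus strand, chr11:102941818-102941979 with 14 CpG sites and chr11:102941501-102941729 with 23, shown because they hold most of the sites of that DMR.
Pla2g2a intron: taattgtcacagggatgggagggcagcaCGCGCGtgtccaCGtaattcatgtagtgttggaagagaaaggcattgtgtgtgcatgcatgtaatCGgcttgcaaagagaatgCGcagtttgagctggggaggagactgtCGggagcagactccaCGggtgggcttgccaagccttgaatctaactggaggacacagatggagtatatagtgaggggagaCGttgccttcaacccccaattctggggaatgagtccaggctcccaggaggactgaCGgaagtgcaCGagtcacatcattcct
Pla2g10 upstream: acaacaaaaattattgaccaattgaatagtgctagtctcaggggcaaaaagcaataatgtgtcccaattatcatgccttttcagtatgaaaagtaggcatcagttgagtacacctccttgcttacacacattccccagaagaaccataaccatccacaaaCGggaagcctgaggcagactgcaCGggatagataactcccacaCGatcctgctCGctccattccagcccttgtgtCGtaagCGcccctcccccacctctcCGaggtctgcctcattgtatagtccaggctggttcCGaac
Plcd3 coding exon upstream: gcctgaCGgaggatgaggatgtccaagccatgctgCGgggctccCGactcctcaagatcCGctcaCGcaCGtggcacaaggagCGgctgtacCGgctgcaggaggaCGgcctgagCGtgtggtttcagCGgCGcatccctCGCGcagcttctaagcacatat
Plcd3 coding exon downstream: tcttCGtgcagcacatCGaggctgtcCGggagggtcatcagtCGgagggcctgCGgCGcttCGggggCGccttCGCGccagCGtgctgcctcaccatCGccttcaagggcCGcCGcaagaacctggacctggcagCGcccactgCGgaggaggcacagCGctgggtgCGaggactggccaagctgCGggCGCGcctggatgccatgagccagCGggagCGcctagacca
The contrast in CpG content can be seen by eye. The *Plcd3* exons had a GC content of 63.6% and 70.3%, and the *Pla2g2a* and *Pla2g10* stretches 53.3% and 48.7%.

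Values are given in rpm, the coverage of a window scaled to 1000000 uniquely aligned reads of the library. Libraries held 13878615 to 26297510 such reads for MeDIP and 3228908 to 5931425 for the input DNA of B3, N4 and Ad7, which was sequenced without the antibody. With fragments of 300 bp taken as independent, the merged DMR values corresponded to 1.62 to 55.7 fragments per 500 bp in a MeDIP library and to at most 3.18 in an input library, single windows could lie outside these ranges, and such counts cover counting error only. No pair of the 11 MeDIP samples held identical values. Log2 differences were taken between group means after 0.05 rpm had been added, which lowers the size of the change at low values.

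The *Pla2g2a* DMR (chr4:138387751-138388750) had the highest signal of the 5 in normal intestine and a much lower one in adenoma. It ran from position -21 to 978 bp relative to the annotated start of *Pla2g2a* (ENSMUSG00000058908), and so covered the first exon, the first intron and the next exon of 53 bp, and it also lay in an intron of *Pla2g5*, which is transcribed from the other strand. The signal was 0.89 rpm in B1, 1.24 in B2 and 1.31 in B3. In APCMin normal intestine it was 1.13 rpm in N4, 1.27 in N5 and 1.08 in N6. In adenoma it was 0.41 rpm in Ad4, 0.49 in Ad4-1, 0.36 in Ad5, 0.39 in Ad6 and 0.29 in Ad7. All 5 adenomas lay below all 6 normal samples, and Ad7 was the lowest. The means were 1.15 rpm ± 0.156 (SD, n = 6) in normal intestine and 0.388 rpm ± 0.0729 (SD, n = 5) in adenoma, a normal-to-adenoma ratio of 2.97 and a log2 difference of -1.46. Complete separation of this kind was found in 51.9% of all hypomethylated DMRs, and since the rule used this contrast nothing is read from it. In pieces of whole tissue, fewer cells with a methylated copy and less methylation in each cell cannot be told apart.

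Within this DMR the middle of the 3 windows carried the most signal and the most CpG sites. The window centred 228 bp after the start of *Pla2g2a* held 8 CpG sites and averaged 1.16 rpm ± 0.155 in normal intestine, against 0.388 rpm ± 0.0729 in adenoma. The window centred at 478 bp held 15 CpG sites and averaged 1.43 rpm ± 0.373 (SD, n = 6) and 0.432 rpm ± 0.0661 (SD, n = 5). The window centred at 728 bp held 10 CpG sites and averaged 0.567 rpm ± 0.261 and 0.156 rpm ± 0.0422. The log2 differences of the 3 windows were alike, at -1.46, -1.62 and -1.58. The annotated exons contributed 1 of the 18 CpG sites of the DMR, and the rest lay in the intron. The stretch that the study amplified after bisulfite conversion, placed here by matching its primers to the converted sequence, was chr4:138388060-138388399 with 12 CpG sites between the primers, and the sequence above is its first 300 bases.

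*Pla2g5* (ENSMUSG00000041193, minus strand, chr4:138355159-138419397) held, beside the shared DMR, 2 hypomethylated DMRs of 1 window each, both in introns and both weak. At chr4:138417751-138418250, centred 1397 bp after the most upstream start of the gene, the signal was 0.58, 0.43 and 0.42 rpm in B1 to B3 and 0.45, 0.48 and 0.52 rpm in N4 to N6. The adenomas had 0.41 rpm in Ad4, 0.23 in Ad4-1, 0.36 in Ad5, 0.42 in Ad6 and 0.20 in Ad7. Ad6 was level with B3, so the groups touched, and Ad4-1 and Ad7 were the lowest. The means were 0.48 rpm ± 0.061 (SD, n = 6) and 0.324 rpm ± 0.103 (SD, n = 5), with a log2 difference of -0.50. At chr4:138372251-138372750, centred 46897 bp after that start, the signal was 0.22, 0.29 and 0.24 rpm in B1 to B3, 0.24, 0.36 and 0.19 rpm in N4 to N6, and 0.21, 0.17, 0.11, 0.16 and 0.17 rpm in Ad4, Ad4-1, Ad5, Ad6 and Ad7. Here Ad4 lay above N6, the groups overlapped, and the log2 difference was -0.52. These were the members closest to the limits of the list. The normal mean of the farther window was 0.257 rpm where the lowest of all hypomethylated windows was 0.248 rpm, and the ratios of the pair were 1.57 and 1.48 where the lowest was 1.32. Windows that missed the limits were not analysed here.

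The *Pla2g10* DMR (chr16:13730751-13731500) lay on the promoter. *Pla2g10* (ENSMUSG00000022683, chr16:13715150-13731076) is read from the minus strand, and the DMR ran from position -424 to 325 bp relative to its annotated start, over 326 bp of the first exon, which is 5′ UTR, and the sequence upstream. It also lay in an intron of 1810007I06Rik (ENSMUSG00000086550), a processed transcript of the plus strand that starts inside *Pla2g10*, and MeDIP does not separate strands. The signal was 0.51 rpm in B1, 0.70 in B2 and 0.75 in B3. In APCMin normal intestine it was 0.26 rpm in N4, 0.41 in N5 and 0.46 in N6. In adenoma it was 0.13 rpm in Ad4, 0.22 in Ad4-1, 0.08 in Ad5, 0.12 in Ad6 and 0.07 in Ad7. The B6 samples were highest, the APCMin normal samples came between, and the adenomas were lowest, with no overlap between neighbouring groups, although Ad4-1 and N4, from the same mouse, were 0.04 rpm apart. The normal mean was 0.515 rpm ± 0.184 (SD, n = 6) and the adenoma mean 0.124 rpm ± 0.0594 (SD, n = 5), a ratio of 4.15 and a log2 difference of -1.70. By the size of this difference the DMR stood in place 3 of the 8845 hypomethylated DMRs and the *Pla2g2a* DMR in place 17, where the median was -0.64.

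At *Pla2g10* the window over the start held more sites and more signal than the one upstream. The window centred 76 bp after the start, with 18 CpG sites, averaged 0.743 rpm ± 0.115 in B6 (SD, n = 3), 0.423 rpm ± 0.136 in APCMin normal intestine (SD, n = 3) and 0.152 rpm ± 0.0698 in adenoma (SD, n = 5). In this window Ad4-1 and N4 were both at 0.27 rpm. The window centred at -174 bp, with 9 CpG sites, averaged 0.56 rpm ± 0.141, 0.333 rpm ± 0.0643 and 0.096 rpm ± 0.0568 in the same order. Of the 18 CpG sites of the whole DMR, 10 lay in the first exon. The stretch amplified after bisulfite conversion, chr16:13730909-13731307, spanned the start with 10 CpG sites between its primers.

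The *Plcd3* DMR (chr11:102941251-102942250) was the 1 hypermethylated member. It lay 20722 to 21721 bp downstream of the annotated start of *Plcd3* (ENSMUSG00000020937, minus strand, chr11:102931618-102962972), inside the gene, and held coding exons of 162 and 229 bp, which carried 37 of its 54 CpG sites. The signal was 0.15, 0.08 and 0.07 rpm in B1 to B3 and 0.09, 0.08 and 0.19 rpm in N4 to N6. In adenoma it was 0.45 rpm in Ad4, 0.53 in Ad4-1, 0.89 in Ad5, 0.55 in Ad6 and 0.84 in Ad7. Each adenoma lay above all normal samples, and Ad5 and Ad7 stood above the other three. The mean was 0.11 rpm ± 0.0486 (SD, n = 6) in normal intestine and 0.652 rpm ± 0.199 (SD, n = 5) in adenoma, a ratio of 5.93 and a log2 difference of 2.13, in place 8 of the 5135 hypermethylated DMRs, whose median was 0.55. Complete separation was found in 44.5% of all hypermethylated DMRs, and the rule used this contrast here too.

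The middle window of *Plcd3*, which spans both exons, held 45 CpG sites in 500 bp at a GC content of 67.8%, or 0.788 of the sites that its C and G content would give by chance. Its signal averaged 0.11 rpm ± 0.0544 (SD, n = 6) in normal intestine and 0.78 rpm ± 0.21 (SD, n = 5) in adenoma. The flanking windows held 27 CpG sites each. Toward the gene's start the means were 0.07 rpm ± 0.0352 and 0.652 rpm ± 0.199, and on the other side 0.133 rpm ± 0.0565 and 0.408 rpm ± 0.11. The log2 differences were 2.38 in the middle, 2.55 toward the start and 1.32 on the other side. The stretches amplified after bisulfite conversion, chr11:102941727-102941969 and chr11:102941480-102941829, held 20 and 30 CpG sites between their primers, and the amplicon used for chromatin immunoprecipitation of the histone mark H3K27me3 (chr11:102941366-102941436) also lay inside the DMR. No values of those assays were used here.

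**Figure D1:**
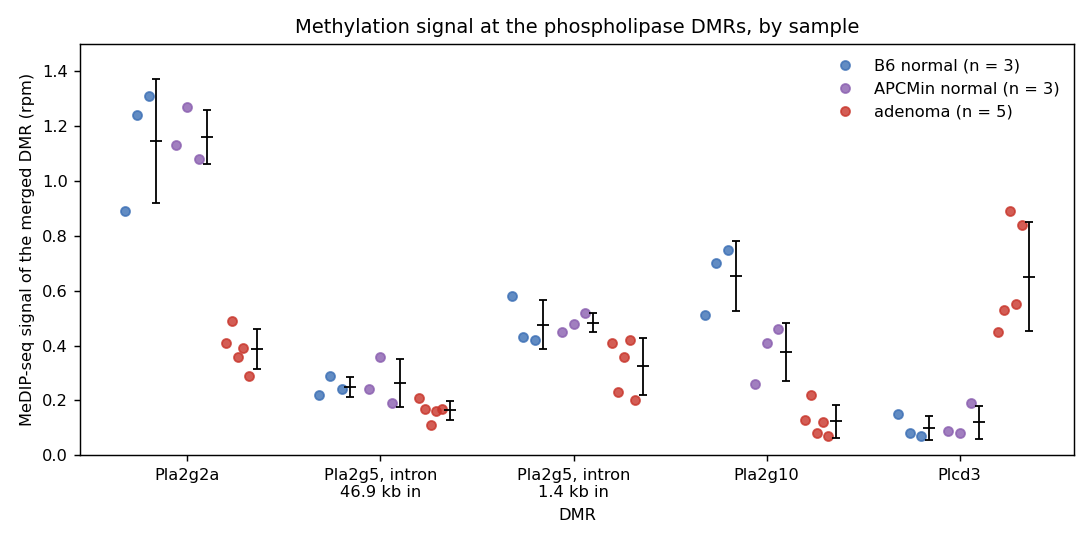
MeDIP-seq signal (rpm) of the 5 merged DMRs, with 1 point per sample in B6 normal intestine, APCMin normal intestine and adenoma, and bars for the mean ± SD of each group. The adenomas sit at 0.29 to 0.49 rpm at *Pla2g2a* and 0.07 to 0.22 rpm at *Pla2g10*, below all normal samples, and at 0.45 to 0.89 rpm at *Plcd3*, above all of them, while the groups meet at both *Pla2g5* DMRs.

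**Figure D2:**
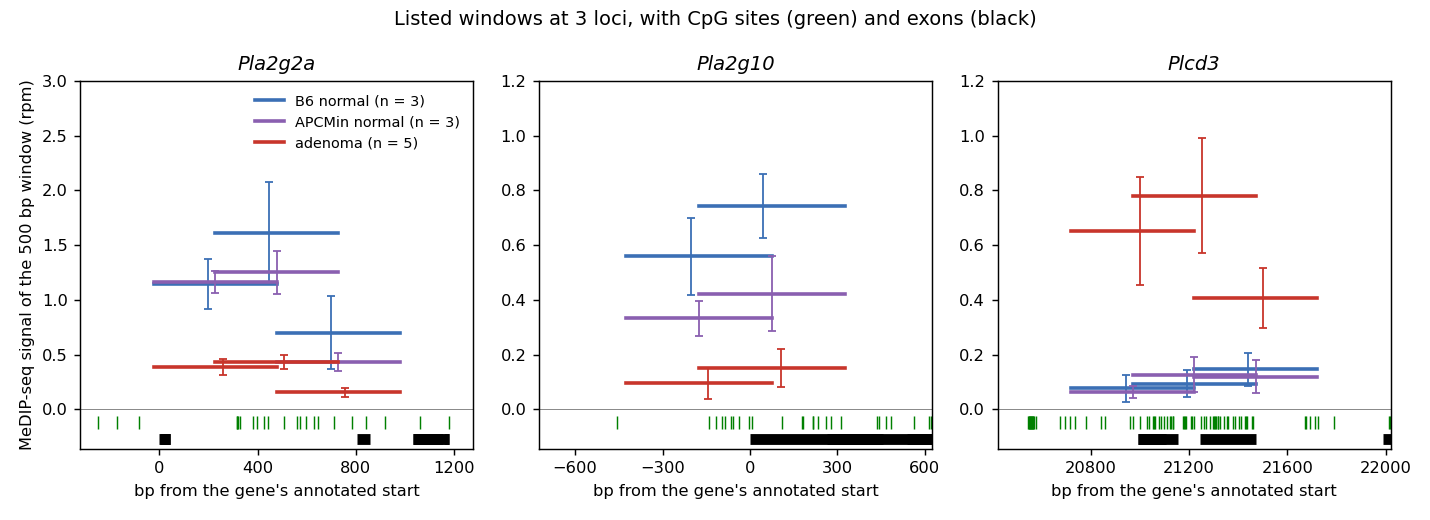
Group means ± SD (rpm) of each listed 500 bp window, drawn as a line over the window, against distance in bp from the annotated start of the gene in the direction of transcription, with green ticks for CpG sites and black bars for exons of that gene. At *Pla2g10* the means of the 3 groups form steps around the start, although Ad4-1 and N4 are both at 0.27 rpm in the window over it. Neither *Pla2g10* window passed the adjusted test between B6 and APCMin normal intestine. At *Plcd3* the signal of adenoma is highest, 0.78 rpm, in the window with 45 CpG sites.

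The DMRs differed in their sequence, which the rule had not used directly. The list required a minimum signal, which CpG sites help to set, so CpG content was not independent of the listing. *Plcd3* had 5.4 CpG sites per 100 bp, and 2.57% of hypermethylated DMRs had as many, with a median of 1.4. *Pla2g10* and the nearer *Pla2g5* DMR had 2.4, which 15.3% of hypomethylated DMRs reached, *Pla2g2a* had 1.8, which 39.6% reached, and the farther *Pla2g5* DMR had 1.6, equal to the median. The 54 sites of *Plcd3* compared with 16 and 28 in the 1000 bp on either side, and the 18 sites of *Pla2g10* with 10 and 1 in the 750 bp on either side. The nearer *Pla2g5* DMR had 12 sites against 2 and 6 in the 500 bp on either side. These DMRs thus lay on local peaks of CpG content. At *Pla2g2a* the 18 sites compared with 15 and 10. A search of both strands for 5 short motifs found AGATAA, the core bound by GATA factors, once in the *Pla2g10* DMR where its windows overlap, against 24.9% of all hypomethylated windows. CACGTG, an E-box, was found in 2 of the 3 *Plcd3* windows against 9.16% of all hypermethylated windows, and GGGCGG, the GC box, in 2 of the 3 against 14.6%, each as 1 match in the overlap of those windows. GGGCGG was also found in the nearer *Pla2g5* window, against 9.85% of all hypomethylated windows. CTTTGA, the core of TCF/LEF sites through which the pathway held in check by Apc acts, was found in the nearer *Pla2g5* window only, against 32.7% of hypomethylated windows, and TGACGTCA in none. These counts describe letters and not binding.

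The listed windows had passed a rank test of adenoma against these same normal samples, pooled. That limited how far normal samples could lie toward the adenomas, so the counts below hold for listed windows and DMRs only. Whether normal intestine differed between APCMin and B6 mice was a contrast that the rule had not itself used. It was tested with limma on log2 values over all 17690 listed windows, and no window passed after Benjamini-Hochberg adjustment (0 of 17690, 0%), while 838 windows (4.74%) had an unadjusted p under 0.05, of which 603 were lower in APCMin and 235 higher (503 and 307 after each sample was centred on its median). Of the 10 windows of the 4 genes 3 were among the 838, both of *Pla2g10* and 1 of *Pla2g2a*. The log2 difference, APCMin minus B6, was -0.78 (SE 0.215, limma unadjusted p = 0.00143, adjusted p = 0.737) over the start and -0.66 (SE 0.212, limma unadjusted p = 0.00503, adjusted p = 0.969) upstream of it. Neither passed the adjusted test. For the merged DMR the B6 mean of 0.653 rpm ± 0.127 (SD, n = 3) was 1.73 times the APCMin mean of 0.377 rpm ± 0.104 (SD, n = 3), with all 3 APCMin samples below all 3 B6 samples (exact two-sided permutation test, p = 0.1, the smallest that 3 against 3 can give). Of all merged DMRs 4.82% showed this order and 3.24% the opposite one. Among the libraries whose code began with MeDIP4, B1 and B2 were at 0.51 and 0.70 rpm and N4 at 0.26 rpm. The full separation had fixed that order beforehand, so nothing is read from it. The other B6 and APCMin normal samples had no library code in common, so code and genotype cannot be told apart there.

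At the other merged DMRs the means of the normal tissues were close. At *Pla2g2a* the mean was 1.15 rpm ± 0.225 (SD, n = 3) in B6 and 1.16 rpm ± 0.0985 (SD, n = 3) in APCMin (exact permutation test, two-sided, p = 0.9). Within it the window centred at 478 bp averaged 1.61 rpm ± 0.461 in B6 (SD, n = 3) and 1.25 rpm ± 0.197 in APCMin (SD, n = 3). Its log2 difference was -0.32 (SE 0.192, limma unadjusted p = 0.105, adjusted p = 0.999). The window centred at 728 bp differed by -0.56 on the log2 scale (SE 0.236, limma unadjusted p = 0.0261, adjusted p = 0.972), where B3 alone stood at 1.08 rpm and the other normal samples at 0.37 to 0.55 rpm. Without B3 the difference was -0.22. The *Pla2g5* DMRs averaged 0.477 and 0.483 rpm near the start and 0.25 and 0.263 rpm farther in, with exact two-sided permutation p values of 0.9 and 1. At *Plcd3* the means were 0.1 and 0.12 rpm (exact permutation test, two-sided, p = 0.6). With 3 samples a group these p values do not show that the tissues were alike.

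**Figure D3:**
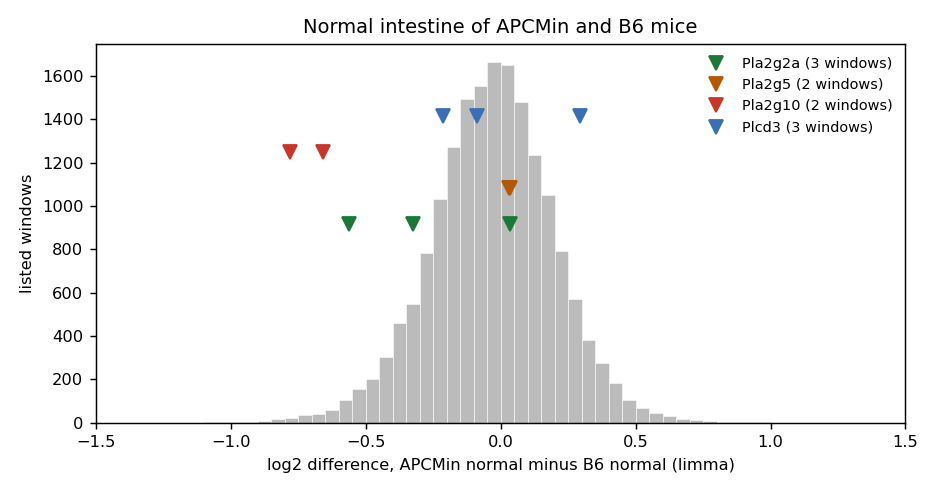
Number of listed windows (grey bars) by their log2 difference between APCMin and B6 normal intestine, estimated with limma, with triangles for the 10 windows of the 4 genes at arbitrary heights. The *Pla2g10* triangles, at -0.78 and -0.66, sit in the low tail, and those of *Pla2g5* lie near the middle.

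Within mice 4, 5 and 6 every change had the direction of the group means. At *Pla2g2a*, *Pla2g10* and *Plcd3* the separation of the groups fixed that direction beforehand. These are the values that the rule had used, so nothing is read from the direction. At *Pla2g2a* the log2 difference between an adenoma and the normal intestine of its own mouse was -1.36 for Ad4, -1.13 for Ad4-1, -1.69 for Ad5 and -1.36 for Ad6. At *Plcd3* the values were 1.84, 2.05, 2.85 and 1.32 in the same order. At *Pla2g10* they were -0.78 for Ad4, -0.20 for Ad4-1, -1.82 for Ad5 and -1.58 for Ad6. Mouse 4 thus gave both the lowest normal value and the smallest change at *Pla2g10*. The *Pla2g5* values ranged from -0.84 to -0.12 near the start and from -1.36 to -0.16 farther in. The spread between samples was set beside counting error. The counting value is for a single window of 500 bp. A merged DMR value is the median of its overlapping windows, so the comparison is a rough one and nothing is concluded from it. At *Pla2g2a* the SD of the normal samples was 0.156 rpm and the counting value 0.182 rpm. At *Plcd3* the SD of the adenomas was 0.199 rpm and the counting value 0.15 rpm. At *Pla2g10* the normal samples had an SD of 0.184 rpm against 0.122 rpm from counting, and the adenomas 0.0594 against 0.0639 rpm.

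Input DNA was read for 3 of these tissue samples. At *Pla2g2a* it was 0.19 rpm in B3, 0.25 in N4 and 0.25 in Ad7, where MeDIP was 1.31, 1.13 and 0.29 rpm. At *Pla2g10* it was 0.02 rpm in B3, 0.23 in N4 and 0.31 in Ad7, higher in the adenoma where MeDIP was lowest. At *Plcd3* it was 0.59 rpm in B3, 0.10 in N4 and 0.03 in Ad7, lower in the adenoma where MeDIP was highest, and the B3 value exceeded the 0.07 rpm of the B3 MeDIP library. In 2.53% of hypermethylated DMRs the B3 input was at least as high, and the median was 0.15 rpm. The farther *Pla2g5* DMR also had 0.59 rpm in B3, with 0.04 in N4 and 0.24 in Ad7, and the nearer one had 0, 0.06 and 0.24 rpm. The log2 difference of the input, Ad7 minus the mean of N4 and B3, was 0.15 at *Pla2g2a*, 1.04 at *Pla2g10*, -2.30 at *Plcd3*, 1.86 at the nearer and -0.33 at the farther *Pla2g5* DMR. These values depended on which normal library was used. Against N4 alone *Pla2g10* gave 0.36 and *Plcd3* -0.91, and against B3 alone they gave 2.36 and -3. With at most 3.18 fragments per 500 bp behind an input value these differences rest on single fragments, and no test was run. The part of DNA amount in the MeDIP differences was not tested.

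**Figure D4:**
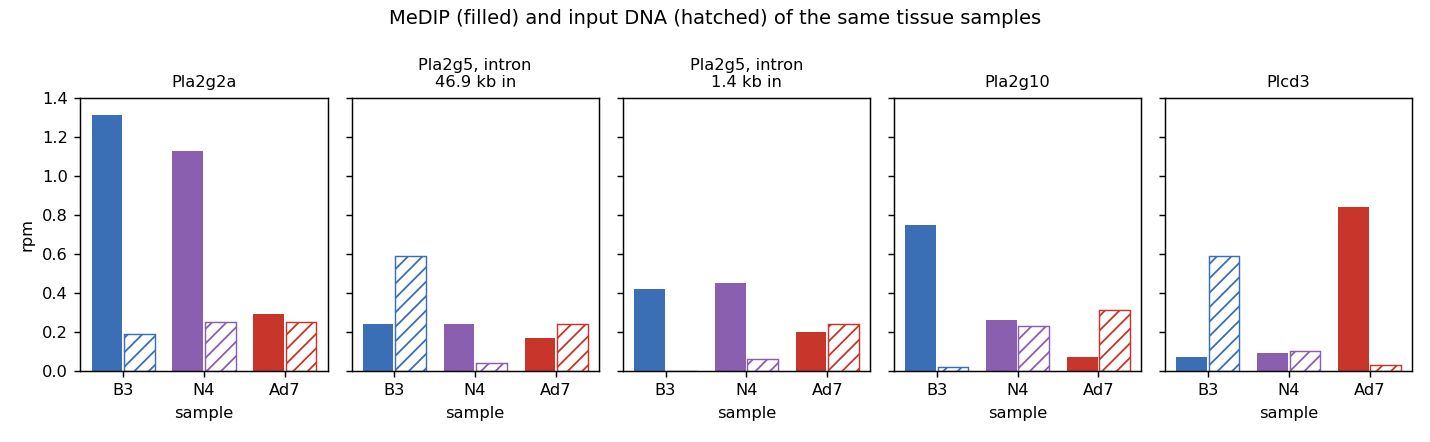
MeDIP signal (filled bars) and input DNA (hatched bars), both in rpm, for B3, N4 and Ad7 at each of the 5 DMRs. The input bars stay at or below 0.31 rpm except for B3 at *Plcd3* and at the farther *Pla2g5* DMR, both 0.59 rpm. The Ad7 input is not below that of B3 or N4 at *Pla2g2a*, *Pla2g10* or the nearer *Pla2g5* DMR. It is below both at *Plcd3*, and below B3 but above N4 at the farther *Pla2g5* DMR. At most 3.18 fragments per 500 bp lie behind an input value, and no test was run.

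*Pla2g2a* and *Pla2g5* belong to a cluster of secreted phospholipase A2 genes on chromosome 4 that also holds *Pla2g2c*, *Pla2g2f*, *Pla2g2d* and *Pla2g2e*. Chromosome 4 as a whole held 597 hypomethylated and 338 hypermethylated DMRs. Over the 159 kb from 1000 bp upstream of *Pla2g2c* to the end of *Pla2g2e*, a span set after the values had been seen, 9 DMRs were listed, of which 9 were hypomethylated and 0 hypermethylated. The 3 described above are among them because the rule chose them. Of the other 6, 3 lay in *Pla2g2f*, 1 just upstream of *Pla2g2c* and 2 between genes. The one of these 6 with the largest log2 difference, at chr4:138312001-138312750 in *Pla2g2f*, averaged 0.9 rpm ± 0.209 in normal intestine (SD, n = 6) and 0.444 rpm ± 0.173 in adenoma (SD, n = 5), with groups that met, and its log2 difference was -0.94. The one upstream of *Pla2g2c*, at chr4:138279251-138279750, averaged 0.502 rpm ± 0.178 and 0.27 rpm ± 0.0625. The *Pla2g2a* DMR had the largest difference and the highest normal signal of the 9.

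**Figure D5:**
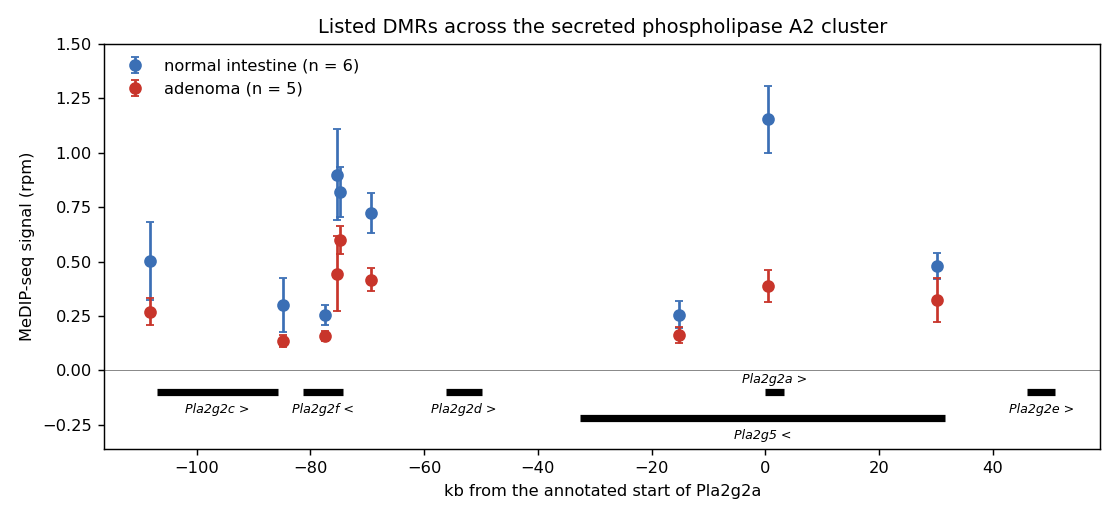
Mean ± SD (rpm) of the 9 listed DMRs in 6 normal samples and 5 adenomas, by distance in kb from the annotated start of *Pla2g2a*, with gene extents and directions below. Normal intestine lies above adenoma at each DMR, by most at *Pla2g2a*, where the means are 1.15 and 0.388 rpm.

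Among all 11 secreted phospholipase A2 genes, 6 had a hypomethylated window in the gene or its 1000 bp upstream and 1, *Pla2g3*, a hypermethylated one, against 14.2% and 11.1% of 22238 protein-coding genes. Of the 8 genes other than *Pla2g2a*, *Pla2g5* and *Pla2g10*, 3 had a hypomethylated window, namely *Pla2g2c*, *Pla2g2f* and *Pla2g12a*. *Pla2g2c* and *Pla2g2f* lie in the cluster of *Pla2g2a* and *Pla2g5*, and the window of *Pla2g2c* was upstream of the gene only. Within gene bodies alone, 5 of the 11 genes had a hypomethylated window. The median gene length was 11124 bp in the list and 15448 bp over all protein-coding genes, and genes of 10 to 30 kb had a hypomethylated window in 10.5%. *Pla2g12a*, a secreted enzyme of a separate class, had 6 such windows, and at chr3:129588251-129588750 it averaged 1.05 rpm ± 0.205 in normal intestine (SD, n = 6) and 0.506 rpm ± 0.0853 in adenoma (SD, n = 5), with a log2 difference of -0.99. Of 17 cytosolic, calcium-independent and related phospholipases A2, 6 (35.3%) had a hypomethylated and 3 (17.6%) a hypermethylated window at a median length of 31087 bp, and none of their windows combined separate groups with a mean of at least 0.5 rpm.

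Of 15 phospholipases C, 7 had a hypermethylated and 6 a hypomethylated window, and 3 had both. Without *Plcd3*, which the rule chose, 6 of 14 had a hypermethylated window. These genes are long, with a median of 60039 bp, and among protein-coding genes of 30 to 100 kb 17% had a hypermethylated and 23.4% a hypomethylated window. *Plcb1*, *Plcb4*, *Plcg2*, *Plce1*, *Plch1*, *Plcl1* and *Plcl2* were longer than 100 kb. At that length the shares were 36.8% and 48%. *Plch2*, an eta class phospholipase C, averaged 1.07 rpm ± 0.263 (SD, n = 6) in normal intestine and 1.56 rpm ± 0.0594 (SD, n = 5) in adenoma at chr4:154360751-154361250, a log2 difference of 0.53, and the window that overlaps it, chr4:154360501-154361000, had 0.73. The 3 windows of *Plcd3* had 1.32 to 2.55. *Plcb4*, of the beta class that acts downstream of G proteins, averaged 0.508 rpm in normal intestine and 0.226 rpm in adenoma at chr2:135607001-135607500, a log2 difference of -1.02. Of 6 phospholipases D, which release phosphatidic acid, 2 had a hypermethylated and 0 a hypomethylated window. The 2 were *Pld1* and *Pld5*, both longer than 100 kb, a length at which 36.8% of protein-coding genes had a hypermethylated window.

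Further along the pathway the counts were mixed. Of 24 arachidonate enzymes and receptors, 4 (16.7%) had a hypomethylated window and 1 (4.17%), *Ptgis*, a hypermethylated one, where the shares over all protein-coding genes were 14.2% and 11.1%. *Alox5*, which opens the leukotriene branch, was the one with separate groups at a mean of at least 0.5 rpm, and at chr6:116365251-116365750 it averaged 0.638 rpm ± 0.111 in normal intestine (SD, n = 6) and 0.32 rpm ± 0.0316 in adenoma (SD, n = 5). Of 19 effectors of inositol trisphosphate and diacylglycerol, 12 had a hypomethylated and 8 a hypermethylated window, with a median gene length of 155481 bp, and genes over 100 kb had such windows in 48% and 36.8%. Of the 19, 7 had both kinds, namely *Itpr1*, *Itpr2*, *Prkca*, *Prkcb*, *Prkce*, *Dgkg* and *Dgki*. *Itpr1*, an inositol trisphosphate receptor, had log2 differences of -1.34 and 0.45 in separate windows. Among windows with separate groups and a mean of at least 0.5 rpm, those in the protein kinase C genes *Prkca* (-1.08), *Prkch* (-1.07) and *Prkce* (-0.42 and -0.47) and the diacylglycerol kinase gene *Dgkg* (-0.95 and -0.72) had negative log2 differences, and the one in *Dgkz* (0.57) a positive one. *Prkca* and *Prkce* each also had 2 hypermethylated windows and *Dgkg* 1, which did not meet those limits. All these windows had been listed by the same rank test.

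The 5 DMRs most like each main DMR, by Pearson's r of log2 values over the 11 samples, were found as a description, since the points share the split of normal and adenoma that put every DMR on the list. For *Pla2g2a* they had r from 0.964 to 0.988 and included DMRs at *Tcf7l2*, which encodes a partner of beta-catenin, *Pde8b* and *Med13l*. For *Pla2g10* r was 0.962 to 0.981, with DMRs at *Gm11715*, *Nhsl1*, *Oma1* and 1500001M20Rik. For *Plcd3* r was 0.953 to 0.963, with DMRs at *Aldh1b1*, *Onecut3*, *Rab15* and *Fntb*, and 4930511A02Rik. Among the members themselves r was 0.927 between *Pla2g2a* and *Pla2g10* and -0.976 between *Pla2g2a* and *Plcd3*, again over the same 11 samples. The nearest listed DMRs outside the rule were 28501 to 69001 bp away, such as a hypermethylated one at *Nmt1*, 28501 bp from that of *Plcd3*, with 0.19 rpm in normal intestine and 0.308 rpm in adenoma.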

How the data were processed

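Ileum DNA of 11 samples was measured by MeDIP-seq, and input DNA of 3. The 7 RNA samples were not analysed here, since the table named for them held column descriptions without genes. The authors aligned reads to mm9 with Bowtie (version 0.12.5 in the submitters' processing notes), kept unique reads, extended them to 300 nt, and deposited rpm values, at 2 decimals, for 500 bp windows stepped by 250 bp that passed a Wilcoxon test, a ratio limit and a mean of 0.25 rpm, and for merged regions, whose value was the median of their windows here. Windows elsewhere carry no value, so absence from the list says nothing of the level. The authors' mean, variance, ratio and p-value columns, which hold their own comparison, were not used. Library totals came from the study's sequencing statistics.

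Genes were taken from GENCODE vM1 on NCBIM37, the same build as mm9, and all regions lay within its chromosomes. limma 3.58.1 (trend, empirical Bayes) in R 4.3.3 was applied to log2(rpm + 0.05) of the 6 normal samples over 17690 windows with Benjamini-Hochberg adjustment and was tested on simulated data. Exact permutation tests used scipy 1.17.1. Replicates were separate mice, except for Ad4 and Ad4-1. The animal ids of the labels pair N4 with Ad4 and Ad4-1, N5 with Ad5 and N6 with Ad6. Deviations from group means had r from -0.0543 to 0.0365 for the 4 pairs of 1 mouse and -0.0413 to 0.0673 for the 11 others. Named were all listed windows of the 4 genes, list genes with separate groups and a mean of at least 0.5 rpm, and the 5 most similar DMRs. Members and lists were chosen with earlier results of these data known. Alternatives were other pseudocounts, medians, sample subsets, an animal block, input subtraction, filters and overlap rules.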

Additional observations from a re-analysis of the deposited data

Results flagged for a closer look

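The *Pla2g2a* window centred 728 bp after the gene's start had 1 normal sample far from the rest. B3 stood at 1.08 rpm and the other 5 normal samples at 0.37 to 0.55 rpm, a gap of 0.746 of the whole range. It was the 1 such sample among 30 groups of values examined at the 4 genes, and chance gives about 1 in 20. In the merged DMR, whose value is the median of its windows, B3 was at 1.31 rpm beside 1.27 rpm in N5.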

How the results depend on the processing

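The log2 difference between adenoma and normal intestine kept its sign at all 5 DMRs under every alternative run. At *Pla2g2a*, *Pla2g10* and *Plcd3*, where the groups were separate, no choice of samples could have changed the sign. The replicate block by animal gave -1.43 at *Pla2g2a*, -1.30 at *Pla2g10*, 2.04 at *Plcd3*, -0.38 at the nearer and -0.61 at the farther *Pla2g5* DMR. A pseudocount of 0.5 rpm shrank it to -0.90 at *Pla2g2a*, -0.70 at *Pla2g10*, 0.92 at *Plcd3* and -0.19 at the farther *Pla2g5* DMR. Subtracting the mean input, with negative values set to 0, gave -2.23, -2.74 and 3.21 at the first 3. At *Plcd3* the mean input of 0.24 rpm lay above every normal sample. At *Pla2g10* the mean input of 0.187 rpm lay above every adenoma except Ad4-1. The values at *Pla2g10* and *Plcd3* thus depended on that floor and on the pseudocount. Within library code MeDIP4 *Pla2g2a* gave -1.18. Leaving out each replicate gave -1.54 to -1.38 at *Pla2g2a*, -1.91 to -1.57 at *Pla2g10*, 2.01 to 2.29 at *Plcd3*, -0.60 to -0.39 at the nearer and -0.60 to -0.42 at the farther *Pla2g5* DMR. Against B6 alone *Pla2g10* gave -2.02 and against APCMin normal tissue alone -1.29.

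Windows that passed between normal tissues numbered 0 to 7 when each replicate was left out (1 without B1, 7 without N6, 0 without any other), none of them a window of the 4 genes. Over all alternatives the adjusted p was 0.27 to 1 at the first *Pla2g10* window and 0.359 to 1 at the other. Input differences at a pseudocount of 0.5 rpm were 0.48 at the nearer *Pla2g5* DMR, from 1.86, and -0.67 at *Plcd3*, and against N4 alone the farther *Pla2g5* DMR turned to 1.69 from -0.33. With windows of complete separation alone, 10 of the 92 list genes had a hypermethylated and 21 a hypomethylated window, against 5.76% and 8.66% of all protein-coding genes. In the main setting the counts were 22 and 34, against 11.1% and 14.2%. Other overlap rules left 21 to 24 and 33 to 36, against 10.8% to 13.3% and 13.9% to 17.4% of all protein-coding genes. The list genes were longer, with a median of 31221 bp against 15448 bp. Causes were not tested.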
